A study of Mus musculus with 72 samples.

Results

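The genes described here are 10 genes of the LIF and FGF signaling pathways in mouse embryonic stem cells (mESCs), taken by symbol from the 51826 genes of the count files. 3 of them encode receptors (*Lifr*, *Il6st* and *Fgfr1*), 1 encodes the transcription factor that carries the LIF signal (*Stat3*), and 6 encode feedback genes and targets (*Socs3*, *Spry2*, *Spry4*, *Dusp6*, *Etv4* and *Etv5*). The cells were E14TG2a, a single mESC line, grown without feeders in serum with LIF, the GSK3 inhibitor CHIR99021 and the MEK inhibitor PD0325901. Every library comes from cells in that medium, and none was made without LIF or without the MEK inhibitor. RNA made during a labeling period took up 4sU (4-thiouridine), a uridine analog that base-pairs as C once alkylated, so that new RNA shows T-to-C conversions. The share of new to total mRNA is the frequency of T-to-C conversions in a gene divided by the conversion rate of new RNA in the same library. The question for these genes is whether mRNAs of receptors and of feedback genes differ in where they are in the cell and in how fast they are replaced.

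LIF binds a receptor made of LIFR and gp130 (encoded by *Il6st*), which activates JAK kinases and STAT3, and *Socs3*, a STAT3 target, encodes an inhibitor of the same receptor. FGF ligands act on FGFR1 and through RAS, RAF, MEK and ERK. Their targets include the Sprouty genes *Spry2* and *Spry4*, which dampen the pathway, *Dusp6*, which encodes a phosphatase of ERK, and the ETS transcription factors *Etv4* and *Etv5*. In mESCs LIF and STAT3 maintain self-renewal while FGF4 and ERK favour the exit from it, and the MEK inhibitor in the medium acts upstream of ERK.

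From 6 replicates that were passaged separately, 72 libraries were made, with 18 for each of whole cells, the nucleus, the membrane fraction (the detergent extract with ER and mitochondria) and the cytosol. The first pair of replicates (1 and 2) has times of 15, 20 and 30 min, the second (3 and 4) of 20, 40, 60 and 120 min, and the third (5 and 6) of 60 and 120 min. Each pair of replicates therefore has its own times and is treated as a batch. The labels give 500 µM 4sU up to 40 min and 100 µM for all libraries of 60 and 120 min. The study's methods use the higher dose up to 60 min, and the conversion rate at 60 min was 5.83 to 8.29% in replicates 3 and 4 and 2.38 to 3.99% in replicates 5 and 6. Doses are thus not compared here. The study excluded samples labeled with 500 µM for more than 60 min, since many genes differed in level from 120 min on. The 8 libraries of 120 min from replicates 3 and 4 have 100 µM by the labels. Their conversion rate was 8.825 to 12.24%, against 3.26 to 3.955% in replicates 5 and 6 at that time. These 8 were set aside, which left 64 libraries and 16 per fraction. Between 13185351 and 52975732 reads per library lay on genes, with a median of 21494524. All 7 mESC markers examined (among them *Pou5f1*, *Nanog* and *Esrrb*) were present at 1.5 or more CPM per kb of exon (CPM, counts scaled to the library total) in whole cells, with a summed level of 2419 to 4593. Markers of primitive endoderm summed to 0.368 to 1.28, of trophectoderm to 0.0228 to 0.226 and of fibroblasts to 0.552 to 3.94 on the same scale, with *Thy1* the only fibroblast marker over 1.5 in the mean. Primed epiblast, mesoderm and neural markers summed to 0.667 to 1.56, 0.947 to 3.51 and 4.74 to 8.27, and *Nes* and *Eomes* were the only ones of these lists at 1.5 or more.

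Libraries of whole cells from replicate 6 went against their labels. Over the 11461 genes with enough T positions in every library, the median share was 0.374 in the library labelled 60 min and 0.175 in the library labelled 120 min. In replicate 5 it was 0.219 and 0.387. *Il6st* showed the same, with 0.644 at 60 min and 0.305 at 120 min in replicate 6 against 0.388 and 0.687 in replicate 5. In the cytosol of replicate 6 the median was 0.181 at 60 min and 0.366 at 120 min, in the order of the labels. Shares at 60 min and half-lives in whole cells are given with and without these libraries. The mean levels and the comparisons of levels in whole cells include them. No libraries without 4sU were used here, so that no background of conversions was subtracted, and the lowest shares at short times include an unmeasured background. A share can exceed 1, since 1 conversion rate per library is applied to all genes.

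AU-rich elements of 3′ UTRs are a known mark of short-lived mRNAs, and the pentamer ATTTA is their core. They are shown here because the feedback inhibitors had the shortest half-lives of the 10 genes. In 1 coding transcript per gene of GENCODE M21 (GRCm38), searched on the transcript strand with overlaps allowed, 65.9% of 19163 genes with a 3′ UTR of at least 100 bases held ATTTA. The pentamer occurred 4 times in *Socs3*, 2 times in *Spry2*, 7 times in *Spry4*, once in *Dusp6*, 5 times in *Etv5* and 0 times in *Etv4*. It occurred 11 times in *Lifr*, 9 times in *Il6st*, 3 times in *Fgfr1* and 2 times in *Stat3*. Per kb of UTR this gave 2.71 for *Socs3*, 2.34 for *Spry2* and 1.97 for *Spry4*, above the median of 1.31 over all genes. *Dusp6*, with 0.841, was below it. *Etv5* had 2.32, the receptors 1.595 (*Il6st*) to 1.74 (*Lifr*), *Stat3* 1.055 and *Etv4* 0. The longer motif TTATTTATT was in 0 of the 10 genes and in 7.44% of all genes. The sites of *Socs3*, *Spry2* and *Dusp6* and the last site of *Etv5* are printed below as DNA of the transcript strand with the pentamer in capitals. The inhibitor genes and *Etv5* did not part by the count of pentamers alone.
Socs3 site 1, chr11:117966863-117966887, minus strand: aggcagtagcATTTAgaagggagac
Socs3 sites 2 and 3, chr11:117966141-117966165, minus strand: ttgcacatatATTTAtATTTAtact
Socs3 site 4, chr11:117966105-117966129, minus strand: catttcagtaATTTAtaataaaaga
Spry2 site 1, chr14:105892094-105892118, minus strand: tgtaaagaatATTTAtttgaagttt
Spry2 site 2, chr14:105892055-105892079, minus strand: aaaaaagaatATTTAttttaagagg
Dusp6 site 1, chr10:99267422-99267446, plus strand: ttgagctggaATTTAttataagaat
Etv5 site 5, chr16:22381596-22381620, minus strand: tctttagtgaATTTAtgctgttttg

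The genes differ in size. *Lifr* (chr15:7090614-7197489 of GRCm38) spans 107 kb, *Fgfr1* on chromosome 8 spans 62.1 kb, *Etv5* on chromosome 16 spans 58.4 kb, *Stat3* on chromosome 11 spans 54.4 kb and *Il6st* on chromosome 13 spans 46.0 kb. *Etv4* and *Spry4* span 15.6 and 15.2 kb. *Spry2* (chromosome 14, 4.87 kb), *Dusp6* (chromosome 10, 4.26 kb) and *Socs3* (chromosome 11, 3.97 kb) are the short genes. *Stat3* overlaps *Stat5a* on the opposite strand, whose counts were 7.24% of those of *Stat3*, and the library kit keeps the strand.

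The level of a gene is given as CPM per kb of exon wherever genes are compared. In whole cells the order of mean levels (SD, n = 16) was *Etv5* with 81.4 ± 24.0, *Etv4* with 34.9 ± 15.8, *Socs3* with 28.8 ± 6.73, *Spry2* with 23.8 ± 5.35 and *Fgfr1* with 20.5 ± 6.03. Below them came *Il6st* with 14.2 ± 5.47, *Lifr* with 13.3 ± 4.83, *Stat3* with 9.96 ± 2.05, *Spry4* with 6.80 ± 5.31 and *Dusp6* with 6.63 ± 3.07. The range of each gene over the libraries overlapped that of the next in the order. The median over 10893 expressed genes was 8.68, so that only *Spry4* and *Dusp6* of the 10 had a mean below it. *Etv5* was above 94.9% of these genes.

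Receptor mRNAs were enriched in the membrane fraction, and the other mRNAs were not. A level is a proportion of its own bulk library, so that more mRNA per cell and more cells with the mRNA cannot be told apart, and neither can a rise in one fraction and a loss of other RNA from it. In the 16 cultures, the ratio of the level in the membrane fraction to that in the cytosol was 4.21 at the lowest, 6.04 at the median and 13.4 at the highest for *Lifr*. It was 4.35, 6.25 and 17.1 for *Il6st*, and 4.50, 6.90 and 17.2 for *Fgfr1*. All 3 receptors were over 3 in 16 of 16 cultures. The other 7 genes were under 1.5 in 16 of 16 cultures, with the highest single ratio 1.37 in *Spry4* and the lowest 0.394 in *Dusp6*. The ratio of mean levels was 0.704 at the median of 11929 genes.

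**Figure D1:**
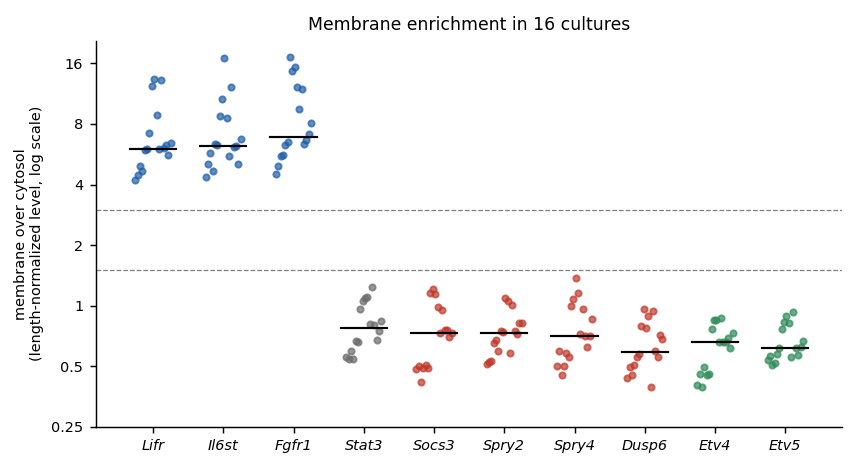
Ratio of the level in the membrane fraction to the level in the cytosol (log scale, both in CPM per kb of exon) for each of the 16 cultures, with bars at the medians and dashed lines at 1.5 and 3. The receptors *Lifr*, *Il6st* and *Fgfr1* lie above 4 in every culture, and the other 7 genes lie below 1.5.

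In edgeR's quasi-likelihood test over 18584 genes, where a call needs both an adjusted p below 0.05 and a log2 difference beyond 0.5 in either direction, the 3 receptors were higher in the membrane fraction than in the cytosol. The log2 difference was 3.07 for *Lifr* (SE 0.0805, adjusted p = 5.2e-33 by edgeR), 3.11 for *Il6st* (SE 0.0694) and 3.33 for *Fgfr1* (SE 0.0716). These calls are read against 24.2% of all genes called higher. They held in all 12 alternatives run for this comparison. The other 7 genes were not called, with differences from -0.41 (*Etv4*) to -0.04 (*Stat3*). Without replicate 4, *Dusp6* (-0.51) and *Etv4* (-0.57) were called lower. Under library size *Socs3* (-0.51), *Dusp6* (-0.68), *Etv4* (-0.73) and *Etv5* (-0.63) were called lower. Scaling by library size alone moved the median of all genes by -0.31 and the split of calls from 66.9 to 33.1% higher. Relative to the median of all genes, *Lifr* was at 3.20 under TMM and 3.19 under library size, and *Socs3* at -0.05 and -0.06. Of the markers for the membrane fraction, 4 of 4 were called higher there (*Hspa5* 5.23, *Hsp90b1* 4.87, *Lamc1* 4.69, *Tfrc* 2.99). Of the nuclear RNA markers, *Kcnq1ot1* (2.44) and *Malat1* (1.505) were also called higher there, and *Meg3* (0.15) and *Neat1* (-0.13) were not. Of the cytosolic markers, *Eef2* (-0.65) and *Gapdh* (-0.59) were called lower, and *Tuba1b* (-0.40) and *Actb* (-0.31) were not. The part of nuclear RNA in the receptor levels of the membrane fraction was not tested.

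The receptors were also higher in the nucleus than in the cytosol, with log2 differences of 1.96 for *Lifr* (SE 0.0776), 1.81 for *Il6st* (SE 0.0665) and 2.12 for *Fgfr1* (SE 0.0686), where 36.8% of all genes were called higher. The membrane markers moved in the same direction, with *Hspa5* higher in the nucleus by 2.98, *Lamc1* by 2.85, *Hsp90b1* by 2.66 and *Tfrc* by 1.81. Their summed level was 396 CPM per kb in the nucleus, 54.0 in the cytosol and 1052 in the membrane fraction. Their part in the nuclear level of the receptors was not tested. The ETS factors were lower in the nucleus, with log2 differences of -0.55 for *Etv4* and -0.53 for *Etv5*, where 30.2% of all genes were called lower. These calls held in 3 (*Etv4*) and 4 (*Etv5*) of 12 alternatives. They were lost without replicate 1, 3, 4 or 5 (-0.47 to -0.27 for *Etv4*, -0.48 to -0.21 for *Etv5*), and for *Etv4* also without replicate 2 (-0.49). They were also lost without the filter on low counts (-0.40 and -0.37), under DESeq2 size factors (-0.35 and -0.32), which moved the median of all genes by 0.20, and under library size (-0.21 and -0.18), which moved it by 0.34. Library size also moved the split of calls from 54.9 to 70.6% higher, and DESeq2 size factors to 63.9%. Relative to that median, *Etv4* was at -0.61 and *Etv5* at -0.58 under all 3 scalings. *Stat3*, *Socs3*, *Spry2*, *Spry4* and *Dusp6* were not called, with values from -0.48 (*Dusp6*) to 0.06 (*Stat3*).

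Over labeling time, the shares of the 4 inhibitor genes lay above those of the other 6. At 20 min in whole cells, the 4 libraries of replicates 1 to 4 gave shares of 0.339, 0.390, 0.239 and 0.222 for *Socs3*, an inhibitor of LIF signaling. *Spry4* gave 0.242, 0.338, 0.314 and 0.295. For *Il6st*, which encodes the shared receptor chain of LIF, they were 0.0334, 0.0316, 0.0419 and 0.0641. Each value of both inhibitors was above each value of the receptor chain. *Fgfr1* had 0.0143, 0.0103, 0.0156 and 0.0156, the lowest of the 10 genes by their mean. *Etv4* had 0.0417, 0.0342, 0.0313 and 0.0191. The median over 12673 genes at 20 min was 0.0340.

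**Figure D2:**
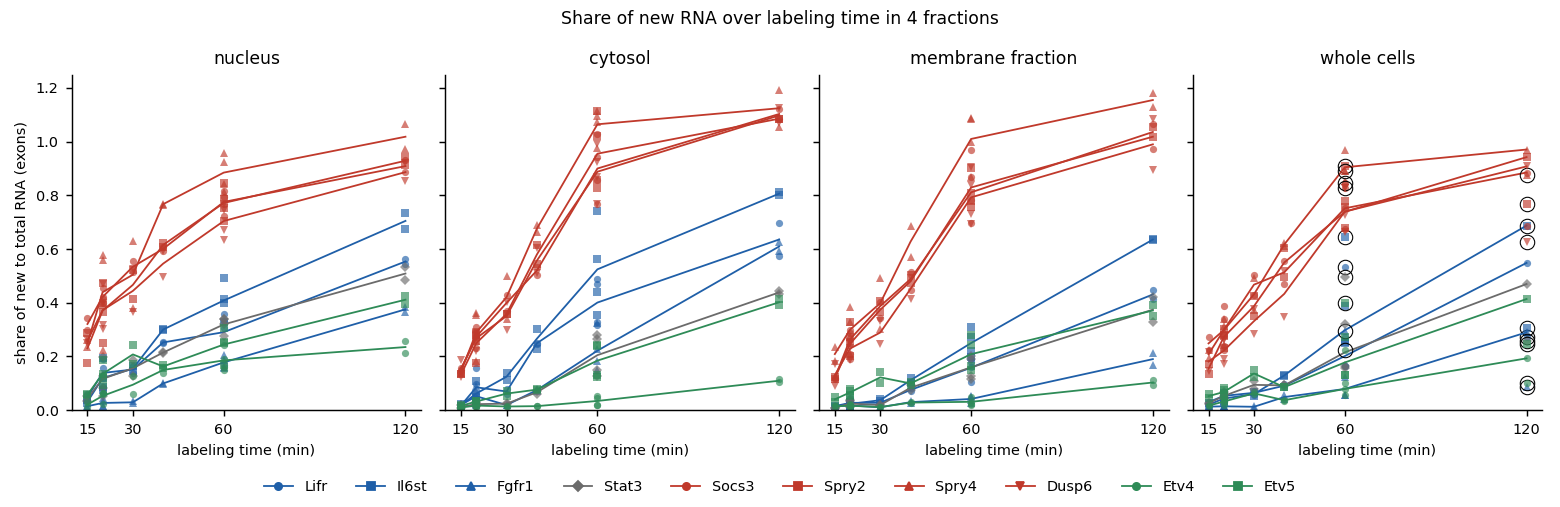
Share of new to total mRNA in exons (vertical axis) by labeling time in min (horizontal axis) in the 4 fractions. Points are libraries, lines join means per time, and pairs of replicates differ between times. Receptors are blue, *Stat3* gray, inhibitors red and ETS factors green, and the whole-cell libraries of replicate 6 are circled and left out of the lines. The 4 inhibitor genes lie above the other 6 at every time, and *Etv4* has the lowest mean in the cytosol at every time.

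At 60 min the mean share in whole cells (SD, n = 4, replicates 3 to 6) was 0.901 ± 0.0484 for *Spry4*, 0.781 ± 0.0947 for *Spry2*, 0.775 ± 0.0789 for *Socs3* and 0.761 ± 0.0809 for *Dusp6*. Next came *Il6st* with 0.384 ± 0.185, *Stat3* with 0.285 ± 0.160, *Lifr* with 0.284 ± 0.173 and *Etv5* with 0.233 ± 0.130. *Fgfr1* with 0.132 ± 0.112 and *Etv4* with 0.114 ± 0.0740 were lowest, and the median of all genes was 0.211. *Dusp6* (0.662 to 0.828) and *Il6st* (0.251 to 0.644) were the only neighbours in this order whose libraries did not overlap. The same gap between *Dusp6* and *Il6st* was present in the nucleus, the cytosol and the membrane fraction. The library labelled 60 min of replicate 6 gave the highest value of *Il6st*, *Stat3*, *Lifr*, *Etv5*, *Fgfr1* and *Etv4*. In the other 3 libraries *Il6st* had 0.251, 0.254 and 0.388, and *Fgfr1* had 0.0578, 0.0552 and 0.123. Their means (SD, n = 3) were 0.297 ± 0.0780 for *Il6st*, 0.215 ± 0.0932 for *Stat3*, 0.201 ± 0.0626 for *Lifr* and 0.177 ± 0.0814 for *Etv5*. *Etv4* with 0.0787 ± 0.0229 and *Fgfr1* with 0.0786 ± 0.0383 were then level. The inhibitors had 0.905 ± 0.0586 (*Spry4*), 0.752 ± 0.0771 (*Socs3*), 0.739 ± 0.0837 (*Dusp6*) and 0.738 ± 0.0520 (*Spry2*). In these 3 libraries *Spry4* and *Socs3*, and *Etv5* and its lower neighbours, did not overlap either.

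Receptors and feedback genes did not form 2 groups by their shares. The lowest of all 6 feedback genes exceeded the highest of the 3 receptors in 2 of 64 libraries. With the feedback genes split into inhibitors (*Socs3*, *Spry2*, *Spry4*, *Dusp6*) and ETS factors, a split made after the values were seen, the lowest inhibitor exceeded the highest receptor in 64 of 64 libraries. It also exceeded *Stat3*, *Etv4* and *Etv5* in 64 of 64. The ratio of the lowest inhibitor to the highest receptor was 1.16 at the lowest, 2.66 at the median and 11.7 at the highest. Without the whole-cell libraries of replicate 6 the counts were 2 and 62 of 62. Using exons within 5 kb of the 3′ end of the gene, the counts were 1 and 64 of 64.

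*Etv4* was below all 3 receptors in 34 of 64 libraries, and in 16 of 16 of the cytosol. *Etv5* was below *Lifr* and *Il6st* in 35 of 64 libraries, with 16 of 16 in the cytosol and 3 of 16 in the membrane fraction. In the cytosol at 60 min the share of *Etv4* was 0.0176, 0.0191, 0.0526 and 0.0463, with the mean at percentile 4.55 of all genes. *Etv5* had 0.124, 0.129, 0.243 and 0.240. Both genes had the higher values in replicates 5 and 6. Across all genes the median in these libraries was 0.0922 and 0.0928 in replicates 3 and 4 and 0.205 and 0.181 in replicates 5 and 6, so that the difference between the pairs is shared by other genes. *Etv4* was below *Etv5* in 63 of 64 libraries. Among the receptors, *Fgfr1* was below both *Lifr* and *Il6st* in 57 of 64.

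An apparent half-life was fitted to the shares of the 16 whole-cell libraries with the curve 1 - exp(-kt), with no delay and no correction for growth, as a description of the same shares and with no test. It was 29.3 min for *Spry4*, 34.6 min for *Socs3*, 35.97 min for *Spry2* and 42.0 min for *Dusp6*. Of 12673 genes, 72 had a shorter half-life than *Spry4*, 97 than *Socs3*, 106 than *Spry2* and 144 than *Dusp6*. All 4 were under the 10th percentile of all genes, 89.3 min. *Il6st* had 122 min, *Lifr* 160 min, *Stat3* 168 min and *Etv5* 188 min, below the median of 232 min. *Fgfr1* with 390 min and *Etv4* with 447 min were above the median, and 10139 of the 12673 genes had a shorter half-life than *Etv4*.

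The pairs of replicates were also fitted alone. *Socs3* had 32.9, 38.3 and 28.9 min in replicates 1 and 2, 3 and 4, and 5 and 6. *Spry4* had 39.4, 27.8 and 16.6 min. *Il6st* had 380, 165 and 88.6 min, and *Fgfr1* 1309, 671 and 311 min. *Etv4* had 360, 627 and 413 min. All 4 inhibitors were at or under 52.5 min in every pair and the other 6 genes at or over 88.6 min. The median of all genes was 408, 351 and 192 min in the 3 pairs. Without replicate 6, which in whole cells means the libraries that went against their labels, *Il6st* had 127 min, *Lifr* 170 min, *Fgfr1* 390 min, *Etv4* 451 min and *Socs3* 34.8 min. Replicate 5 alone gave 26.0 min for *Socs3*, 12.2 min for *Spry4*, 76.9 min for *Il6st*, 259 min for *Fgfr1* and 389 min for *Etv4*. With 5 min taken off each labeling time, as a delay until new RNA is seen, every one of these genes had a shorter half-life. *Socs3* then had 29.2 min, *Spry4* 24.4 min and *Fgfr1* 357 min, with a median of all genes of 212 min.

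**Figure D3:**
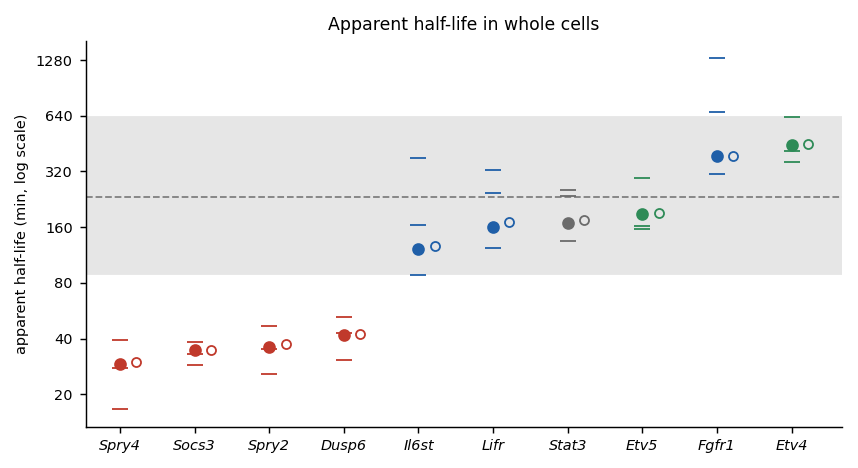
Apparent half-life in whole cells in min (log scale). Filled circles are fits to 16 libraries, open circles fits without replicate 6, and ticks fits to each pair of replicates. The dashed line is the median of 12673 genes (232 min) and the gray band their 10th to 90th percentile. *Spry4*, *Socs3*, *Spry2* and *Dusp6* lie below the band in every fit shown.

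Between fractions, the share was tested with limma on log2(share + 0.01), over the 11575 genes that had 400 or more T positions in each library. At 20 min, 72.2% of genes were called higher in the nucleus than in the cytosol, and 0.406% lower, with a median log2 difference of 1.16. Of the 10 genes, 8 were called higher. *Stat3* had 1.87 (SE 0.186) and *Etv5* 1.75 (SE 0.171), above the median of all genes, and *Etv4* had 1.18 (SE 0.230). The receptors *Il6st* (0.88) and *Lifr* (0.76) and the inhibitors *Socs3* (0.61), *Spry4* (0.55) and *Spry2* (0.54) were below the median. *Dusp6* was not called at 0.45 (SE 0.181, adjusted p = 0.0273 by limma), under the limit of 0.5. Without replicate 3 the calls of *Lifr*, *Il6st*, *Spry2* and *Spry4* were lost, and that of *Spry4* also without replicates 2 or 4. For *Dusp6*, a call was made without replicate 2, at 0.52.

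*Fgfr1*, the FGF receptor of the list, went the other way at 20 min. Its share at 20 min in replicates 1 to 4 was 0.0149, 0.0133, 0.0320 and 0.0455 in the nucleus and 0.0234, 0.0201, 0.0725 and 0.0897 in the cytosol, higher in the cytosol in each of the 4 replicates. The log2 difference of nucleus to cytosol was -0.65 (SE 0.229, adjusted p = 0.0113 by limma), called lower. The call was lost without any 1 of replicates 1 to 4 (adjusted p from 0.0629 to 0.102), and on shares without the log transformation (adjusted p = 0.495). The level of *Fgfr1* in the cytosol was low at this time, 7.66 to 56.1 CPM. At 30 and 40 min the mean share of *Fgfr1* was higher in the nucleus (0.0288 and 0.0991) than in the cytosol (0.0186 and 0.0742). At 60 min it was 0.178 in the nucleus and 0.221 in the cytosol. *Lifr*, *Il6st* and the inhibitors also had higher means in the cytosol at 60 min, and *Stat3*, *Etv4* and *Etv5* had higher means in the nucleus.

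At 60 min the receptors had a lower share in the membrane fraction than in the cytosol. *Fgfr1* had 0.0271, 0.0363, 0.0537 and 0.0482 in the membrane fraction of replicates 3 to 6 and 0.184, 0.149, 0.325 and 0.227 in the cytosol. *Il6st* had 0.221, 0.199, 0.308 and 0.272 against 0.353, 0.440, 0.564 and 0.740. *Lifr* had 0.160, 0.105, 0.189 and 0.178 against 0.329, 0.315, 0.487 and 0.471. For each of the 3 genes no library of the membrane fraction reached the cytosol. The log2 difference was -2.15 for *Fgfr1* (SE 0.229, adjusted p = 1.4e-08 by limma), -1.29 for *Lifr* (SE 0.212, adjusted p = 2.8e-05) and -1.01 for *Il6st* (SE 0.223, adjusted p = 0.00157). Among all genes 7.65% were called lower in the membrane fraction and 0.726% higher. The other 7 genes were not called, with values from -0.31 (*Stat3*) to 0.19 (*Etv5*). The call of *Il6st* was lost without replicate 4 (-0.89, adjusted p = 0.0597). In CPM, the level of the receptors was lower in the cytosol than in the membrane fraction.

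**Figure D4:**
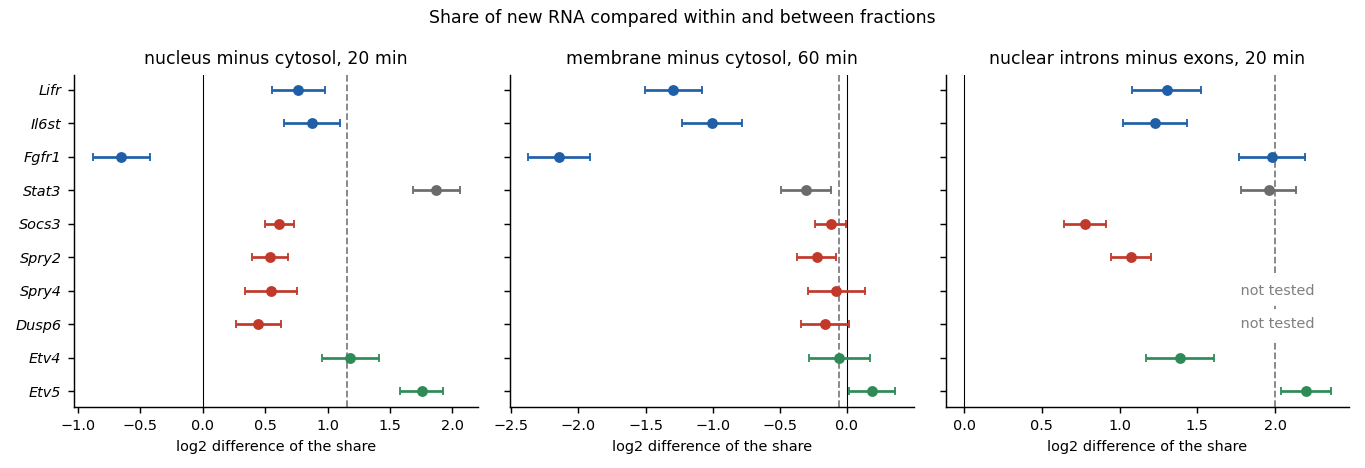
Log2 differences of the share of new to total mRNA (points, with SE as bars) for nucleus minus cytosol at 20 min, membrane minus cytosol at 60 min and nuclear introns minus exons at 20 min. Dashed lines are medians of all genes tested. The 3 receptors are shifted to lower shares in the membrane fraction, and the other 7 genes lie near 0 there.

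Introns in the nucleus carry RNA that has not been spliced. At 20 min, the share of 92.8% of 9837 genes was called higher in nuclear introns than in nuclear exons. The same call was made for 8 of 8 genes tested here. *Spry4* and *Dusp6* were not tested, since some libraries had under 400 T counts in their introns. *Etv5* had intron shares of 0.448, 0.647, 0.820 and 0.688 in replicates 1 to 4, with a mean of 0.651 ± 0.154 (SD, n = 4) against 0.135 ± 0.0397 in exons and a log2 difference of 2.20 (SE 0.160). *Stat3* had 0.452 ± 0.142 against 0.116 ± 0.0634 (1.96, SE 0.177). *Spry2* had 0.773 ± 0.0755 against 0.370 ± 0.0924 (1.07), and *Socs3* 0.755 ± 0.251 against 0.421 ± 0.0249 (0.78). The introns of the receptors were at 0.377 ± 0.175 (*Lifr*), 0.299 ± 0.139 (*Il6st*) and 0.132 ± 0.0533 (*Fgfr1*). *Etv4* introns were at 0.148 ± 0.0337, near *Fgfr1* and with a range of 0.105 to 0.186 below the whole range of *Etv5* (0.448 to 0.820). At 60 min the introns of *Etv4* reached 0.516, 0.540, 0.668 and 0.570, and those of *Fgfr1* 0.681, 0.662, 0.688 and 0.695, where *Etv5* had 1.05, 1.06, 1.15 and 1.08. *Etv4* and *Fgfr1*, which had the longest half-lives of the 10 genes, had the lowest mean intron shares of the 8 genes tested at both times.

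In long genes, exons near the 3′ end are transcribed last, and new RNA is seen there first in poly(A)-selected RNA. In the nucleus at 20 min the share of *Stat3* was 0.146 ± 0.0759 (SD, n = 4) in exons under 5 kb from the 3′ end and 0.00452 ± 0.00309 in exons over 20 kb away. *Lifr* had 0.154 ± 0.0517 and 0.0227 ± 0.0263, and *Etv5* 0.155 ± 0.0445 and 0.0270 ± 0.0138. The near exons were higher in 16 of 16 nuclear libraries for these 3 genes. *Il6st* had 0.135 ± 0.0620 and 0.0680 ± 0.0338, with the near exons higher in 10 of 16, and *Fgfr1* 0.0361 ± 0.0217 and 0.0286 ± 0.0210, with 14 of 16. The short genes *Socs3*, *Spry2* and *Dusp6* have no exons over 20 kb away. Labeling of a long gene thus depends on which exons are read. From the most 3′ exon alone *Fgfr1* had 306 min, *Etv4* 369 min, *Lifr* 143 min and *Il6st* 117 min, while *Socs3* had 34.5 min and *Dusp6* 42.5 min. Without replicate 6 these were 305, 368, 152, 122, 34.6 and 42.0 min in the same order.

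The levels of the members were compared between labeling times within the same replicates. By the labels, replicates 3 and 4 had 500 µM 4sU at 20 min and 100 µM at 60 and 120 min. Their conversion rate was 2.691 to 3.558% at 20 min, 5.831 to 8.286% at 60 min and 8.825 to 12.24% at 120 min. The study's methods also describe 500 µM at times beyond 60 min, so that the dose of these libraries is uncertain. If the labels hold, time and dose cannot be told apart in comparisons with 20 min. The 120 min libraries are those set aside elsewhere, and time and an effect of 4sU cannot be told apart in them. In whole cells, 0 of the 10 genes were called between 60 and 20 min (replicates 3 and 4, 0.0% of 16858 genes called, 747 with an unadjusted p below 0.05), between 120 and 20 min (the same replicates with the libraries set aside elsewhere, 0.113% called) or between 120 and 60 min (replicates 5 and 6, 0.0% called, 123 with an unadjusted p below 0.05). The comparison of 120 with 60 min in whole cells includes the libraries of replicate 6 that went against their labels. It therefore cannot decide on a change with time. In the nucleus 0 were called in the same comparisons, with 0.0% (3454 genes with an unadjusted p below 0.05), 2.91% and 0.0% (348) of 17810 genes called. The test of a difference between nucleus and whole cells in the change from 20 to 60 min called 0.0% of 18307 genes (607 with an unadjusted p below 0.05) and none of the 10. DESeq2 called 227 genes in the nucleus between 60 and 20 min, none of them among the 10, and 0 genes in each of the other comparisons in which edgeR called 0. The largest difference was that of *Dusp6* in whole cells, with 37.7 and 34.5 CPM at 20 min, 32.8 and 22.5 at 60 min and 21.3 and 18.8 at 120 min. Its log2 difference from 20 to 120 min was -0.78 (SE 0.182, adjusted p = 0.0933 by edgeR), and DESeq2 made a call (-0.75, adjusted p = 0.0290). *Spry4* had 72.8 and 55.1 at 20 min and 48.8 and 33.5 at 120 min, with -0.57 (SE 0.255, adjusted p = 0.475).

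**Figure D5:**
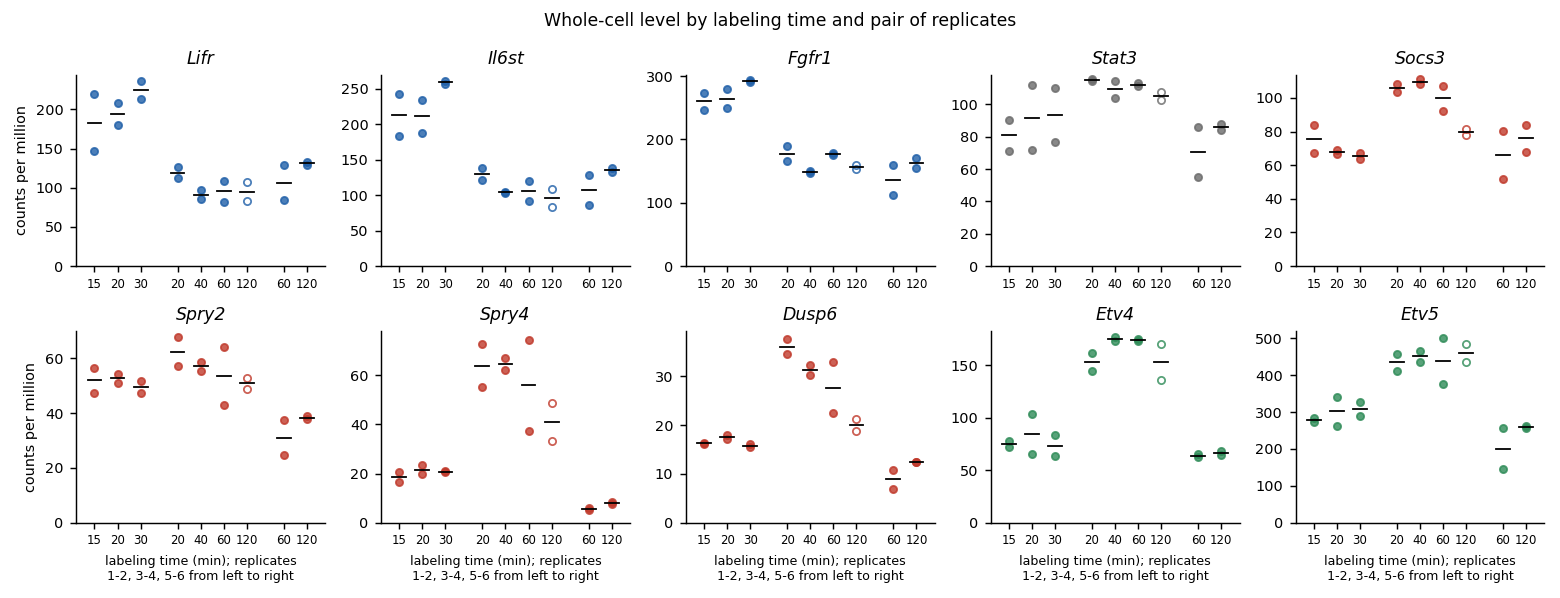
Level in whole cells (CPM, each axis from 0) by labeling time in min, for the pairs of replicates 1 and 2, 3 and 4, and 5 and 6 from left to right. Points are libraries, bars are means, and open points are the libraries of 120 min set aside. *Spry4*, *Dusp6* and *Etv4* are higher in replicates 3 and 4 than in the other pairs, and the receptors are highest in replicates 1 and 2. *Spry2* was not called between replicates 3 and 4 and replicates 1 and 2 at 20 min (0.28).

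In the main fits more genes were called between pairs of replicates than between times. After the values were seen, replicates 3 and 4 were compared with replicates 1 and 2 at 20 min, the time they share, and 22.3% of 16858 genes were called in whole cells. *Spry4* had 19.7 and 23.4 CPM in replicates 1 and 2 and 72.8 and 55.1 in replicates 3 and 4, a log2 difference of 1.61 (SE 0.262, adjusted p = 5.2e-04 by edgeR). *Dusp6* had 17.9 and 17.2 against 37.7 and 34.5 (1.07, SE 0.183). *Etv4* had 103 and 65.7 against 162 and 145 (0.88, SE 0.223). *Socs3* (0.68) and *Etv5* (0.57) were also called higher. *Stat3* and *Spry2* were not called, at 0.38 and 0.28. The receptors were called lower, with -0.66 for *Lifr* (179.5 and 207.5 against 111.8 and 126.0 CPM), -0.66 for *Il6st* and -0.54 for *Fgfr1*. Without replicate 3 or without replicate 4 only the calls of *Spry4* and *Dusp6* held, and the count of all genes called fell from 3755 to 344 and 1454. In replicates 5 and 6, *Spry4* had 5.01 to 8.35 and *Dusp6* 6.89 to 12.5 CPM in whole cells at 60 and 120 min. Replicates 3 and 4 had 37.4 to 74.5 and 22.5 to 32.8 at 60 min.

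In the nucleus, where 12.9% of genes were called between the same pairs, *Spry4* (1.58, SE 0.263) and *Etv4* (0.86, SE 0.271) were called higher, and the calls of *Etv4* were lost without replicate 3 or 4. *Dusp6* had 0.35 there and was not called. The receptors were not called there either, at -0.19 (*Lifr*), -0.24 (*Il6st*) and 0.15 (*Fgfr1*). *Stat3*, *Socs3*, *Spry2* and *Etv5* were not called, with values from 0.06 (*Etv5*) to 0.37 (*Socs3*). Of the membrane markers, *Hspa5* (-0.87) and *Hsp90b1* (-0.82) were called lower in the nucleus, and *Tfrc* (-0.81) and *Lamc1* (-0.08) were not. The markers of the membrane fraction moved with the receptors in whole cells. In whole cells at 20 min they summed to 5280 and 5375 CPM in replicates 1 and 2 and to 2322 and 2733 in replicates 3 and 4, and 4 of 4 were called lower (*Hspa5* -1.03, *Hsp90b1* -1.16, *Tfrc* -1.37, *Lamc1* -0.67). The cytosolic markers summed to 4291 and 5193 against 6630 and 7746. Markers of nuclear RNA summed to 1153 and 1199 against 541 and 802. Of these, *Meg3* (-1.335) and *Neat1* (-1.095) were called lower, and *Malat1* (-0.49) and *Kcnq1ot1* (-0.63) were not called. The part of these 3 kinds of markers in the difference of receptors and feedback genes was not tested. The mESC markers summed to 4050 and 4394 against 5219 and 5878.

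Further genes of the pathways were taken as lists, 21 genes of LIF signaling and 38 of FGF and ERK signaling that are not among the 10. Half-lives were fitted for 19 and 35 of them. The median was 140 min for the LIF list and 154 min for the FGF list, against 232 min over all genes, and 7 and 8 of them were under the 10th percentile. Without replicate 6 the medians were 142 and 163 min against 234 min, and again 7 and 8 were under the 10th percentile. In the LIF list the ligand *Lif* (36.2 min), the AP-1 gene *Junb* (40.5 min) and the STAT5 target and inhibitor *Cish* (51.9 min) were shortest, and the kinase genes *Tyk2* (310 min) and *Jak1* (415 min) and the phosphatase gene *Ptpn6* (385 min) were longest. In the FGF list the immediate early genes *Fos* (24.9 min) and *Ier3* (31.6 min) and a further Sprouty gene, *Spry1* (32.6 min), were shortest. The kinase genes *Mapk3* (447 min) and *Map2k2* (702 min) were longest.

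In the membrane fraction against the cytosol, 2 of 21 genes of the LIF list were called higher and 0 lower, and 10 of 38 genes of the FGF list higher and 3 lower. The median of the FGF list was -0.17 and that of all genes -0.13. *Il17rd*, which encodes a membrane protein that inhibits FGF signaling (3.49), the secreted ligand *Fgf15* (3.29) and the receptor *Fgfr2* (3.12) were the largest, near the receptors of the list, and *Fos* (-0.72) and *Nras* (-0.63) were the lowest. Over all genes 24.2% were called higher, and 2231 of 18584 lower. In the nucleus against the cytosol, 1 gene of the LIF list was called higher and 3 lower, and 14 of the FGF list higher and 11 lower, beside 36.8% of all genes higher and 30.2% lower. The share at 20 min was called higher in the nucleus for 18 of 19 genes of the LIF list and 26 of 31 of the FGF list, beside 72.2% of all genes. Between the pairs of replicates at 20 min in whole cells, 4 of 21 genes of the LIF list were called higher and 1 lower, where 22.3% of all genes were called in either direction. They were the STAT3 targets *Gbx2* (1.41), *Bcl3* (1.11) and *Klf4* (0.73), with *Jak1* (0.86), and *Osm* was lower (-1.56). In the FGF list 3 of 37 were called higher and 6 lower, among them *Il17rd* (-1.20), *Fgfr4* (-1.28) and the immediate early gene *Ier3* (-0.93). Between labeling times 0 genes of either list were called.

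The share of *Socs3* over the 64 libraries was most like that of *Spry2*, with a mean absolute difference of 0.18 on the log2(share + 0.01) scale, then *Smad7*, an inhibitor of TGF-beta signaling (0.18), and *Dusp1*, a phosphatase of MAP kinases (0.20). The median over 11575 genes was 2.57. *Dusp6* was at 0.22, with 3 genes closer, and *Spry4* at 0.30, with 19 closer. Most like *Lifr* were *Tmem201* (0.23), *Slc20a1* (0.23) and *Slc39a14* (0.26), genes of membrane proteins, with a median of 0.93 over genes. *Il6st* was at 0.37 with 76 genes closer, and *Fgfr1*, at 1.07, was farther from *Lifr* than 7024 genes were. Without the whole-cell libraries of replicate 6, the 3 most like genes of *Socs3* and of *Lifr* were the same.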

How the data were processed

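RNA of E14TG2a cells was labeled with 4sU and poly(A)-selected libraries were sequenced as paired reads. The authors aligned reads to GRCm38 (mm10) and, per the submitters' processing notes, used STAR 2.7.6, HTSeq 0.11.1 and RSEM 1.3.3. The authors deposited raw read counts per gene without normalization, and, for exons and introns, counts of T positions and of T-to-C conversions that omit known variant sites. A deposited fraction gives the conversion rate of new RNA in each library, which the authors took from a mixture model. The share is the deposited ratio of converted to all T positions over that rate. Recomputed here, it differed from the authors' own value by at most 2.4e-13. In the deposited count files, 3.09 to 27.8% of read pairs listed lay on no gene and were left out.

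Levels were tested with edgeR 4.0.16 (TMM, filterByExpr, quasi-likelihood, Benjamini-Hochberg adjustment) in R 4.3.3, with fraction, time and pair of replicates as cell means, and shares with limma 3.58.1. All genes were fitted and adjusted together. DESeq2 1.42.0 was an alternative, beside other scalings, filters, T minimums and leaving out each replicate. Both fits were tested on simulated data. Python 3.11.15, numpy 2.4.6 and pandas 2.3.3 were used. Gene symbols and positions came from GENCODE M21, which matched 99.6% of genes. The named genes were the 10 members in every comparison, the 3 highest and 3 lowest called genes of each pathway list, and the 3 genes most like *Socs3* and *Lifr* in share. Some genes that this rule names are not reported here. The members and lists were chosen with earlier results of these data known. Total counts of 13185351 to 52975732 per library limit the precision of levels, and T counts that of shares. By the protocol, fractions with the same replicate and time were made from 1 culture, and their deviations from the group means correlated by -0.026 to 0.201 between nucleus and cytosol and by 0.041 to 0.183 between membrane fraction and cytosol.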

Additional observations from a re-analysis of the deposited data

Results flagged for a closer look

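Within the 160 groups of 4 libraries of 1 fraction and time (20 or 60 min), 6 held a library farther from the other 3 than Dixon's 95% critical value for the gap over the range. Chance flags about 1 in 20 groups. The share of *Etv4* in the nucleus at 20 min was 0.0219 in replicate 1 and 0.0610 to 0.0643 in the other 3. *Etv4* in the cytosol at 60 min had 166.4 CPM (counts scaled to the library total) in replicate 4 and 126.8 to 130.4 in the others. *Etv5* in the nucleus at 20 min had 312.1 in replicate 2 and 375.2 to 384.6 in the others. In the membrane fraction at 60 min, *Il6st* had 170.0 in replicate 4 and 158.1 to 158.6 in the others, and *Lifr* 130.1 in replicate 3 and 152.2 to 154.0 in the others. *Stat3* in whole cells at 20 min had 71.54 in replicate 1 and 112.0 to 115.5 in the others.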

How the results depend on the processing

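Of 890 alternatives for single genes in the level comparisons 848 kept their call and direction, 33 lost the call and 9 gained one. For shares the numbers were 261, 17 and 2 of 280, and 89 of 90 half-lives moved by less than the SD over pairs. The pairs have different times, and this SD was wide, with 505 min for *Fgfr1* (half-life 390 min) and 151 min for *Il6st* (122 min). The count of half-lives is therefore a weak check. The exception was *Socs3*, with an SD of 4.72 min, under a delay of 5 min. No call changed sign, where sign changes of genes called in neither fit were not counted. Of 129 alternatives for counts and medians over all genes, 24 moved by over 1.5 times, and the cause was not tested. Scaling by library size alone gave 11742 genes between membrane fraction and cytosol and 12 in whole cells between 120 and 20 min. DESeq2 gave 113 genes for the latter, and 227 (60 min) and 975 (120 min) against 20 min in the nucleus. Without the filter on low counts there were 42, 227 and 49 genes in whole cells (60 against 20, 120 against 20, 120 against 60 min) and 956, 1242 and 80 in the nucleus. On shares without log transformation 2556 genes were called between nucleus and cytosol, where *Lifr*, *Il6st*, *Fgfr1*, *Spry2*, *Spry4* and *Etv4* lost their call. With exons near the 3′ end, all feedback genes exceeded all receptors in 1 library. Leaving out 1 replicate gave 0 to 0 genes in whole cells between 120 and 20 min, 0 to 1359 (without replicate 3) and 290 (without replicate 4) to 565 in the nucleus for 60 and 120 against 20 min, and, between replicates 3 and 4 and 1 and 2, 344 to 4143 in whole cells and 896 (without replicate 1) to 3407 in the nucleus.

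A replicate block in the comparisons of fractions, which are pairs by culture, gave 6751 genes between membrane fraction and cytosol and 12463 between nucleus and cytosol and changed no call of the 10 genes. Between labeling times the replicates share only a number (correlations of deviations 0.003 to 0.363). There the replicate block gave 31 genes in whole cells (120 against 20 min) and 1070 and 1803 in the nucleus (60 and 120 against 20 min), with no call among the 10 genes.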
